A study of Mus musculus with 5 samples.

Results

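The circadian clock genes described here are a set of 10, named by symbol: Nr1d1, Per1, Per2, Per3, Dbp, Tef, Hlf, Arntl (also written Bmal1), Clock and Cry1. Members were those found under their symbol in the array's annotation with a value on 4 or more of 5 arrays. Of the 10, 7 met this, among 10081 genes and unnamed features that did so in all. Per2 and Clock each had a feature on the array that carried no value for any mouse, and no feature was listed for Hlf. No level is given for these 3 genes. Each measured member was represented by 1 feature, so no agreement between features of a gene can be shown.

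Lungs of 5 mice of the inbred strain 129svJ treated with bleomycin, a DNA-cleaving antitumour antibiotic used to injure the mouse lung, were each compared on a 2-colour array with 1 common pool of lung RNA from control 129svJ mice. All RNA was amplified, and the 5 arrays form a single group with mice 1 to 5 as replicates. Dose, route, time after treatment, age, sex, the size of the pool and the hour of day at which lungs were taken were not stated in the labels. No genetic alteration is named in the labels.

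Mammalian clock genes form a transcriptional loop. The activators CLOCK and ARNTL bind E-box sequences and drive the Per and Cry genes, whose proteins repress that activation, and Nr1d1, whose protein represses Arntl through ROR elements. The same activators drive Dbp, Tef and Hlf, bZIP factors that bind D-box sequences and pass the rhythm to output genes. Levels of most of these transcripts, in lung as in other tissues, change over the day.

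The values are log2 ratios of the channels, centred on each array's median. Positive values would mean more RNA in the bleomycin mouse if the order of the labels held, but no dyes are given and known injury genes lay on the opposite side. The cell cycle inhibitor Cdkn1a, the chemokine Cxcl1, the complement component C1qb and the injury-associated secreted protein Retnla averaged between −2.87 and −1.61. The endothelial marker Pecam1, the alveolar markers Sftpa1 and Cav1 and the lung monooxygenase Fmo2 averaged between 1.11 and 2.45. Other alveolar markers, Sftpc, Sftpd, Abca3, Aqp5 and Pdpn, averaged between −0.27 and 0.25 and did not pass the test given below. By that test 3 of 5 type 1 and 1 of 4 type 2 alveolar markers passed above 0, and none below 0. The injury genes, Pecam1, Sftpa1, Cav1 and Fmo2 were chosen with earlier results of these data known. The direction is therefore not settled, and values are given by their side of 0. The log base is not stated either: folds assume base 2.

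Nr1d1, Tef, Per1 and Dbp lay above 0, the side of Pecam1 and Sftpa1, and passed the test (limma, Benjamini-Hochberg adjusted p under 0.05 over all 10081). Cry1, Per3 and Arntl did not pass. The 4 members past the threshold were 57.1% of the 7 measured. Over all genes and features, 49.6% were called, 25.8% above 0 and 23.9% below 0, and the members' share lies near that background. The median of the members' mean log2 ratios was 0.29, against −0.01 over everything tested. No member was called below 0, also not at an unadjusted limma p under 0.05, at which 5 lay above 0. A control pool that departs from the average control mouse counts as a difference here, since the pool was the same on all arrays. A wider-error test therefore gave the pool the error of a single mouse that varies as the treated mice do. By it 0 of 7 members passed at a limma adjusted p under 0.05. Of everything tested, 5.09% passed at that adjusted threshold, 2.98% above 0 and 2.11% below 0. At an unadjusted limma p under 0.05 it had 3 members above 0 and 0 below 0. The share of everything tested at an unadjusted p was not counted for either test, so neither unadjusted count has a background beside it. An exact two-sided sign-flip test cannot go below p = 0.0625 with 5 mice or p = 0.125 with 4.

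**Figure D1:**
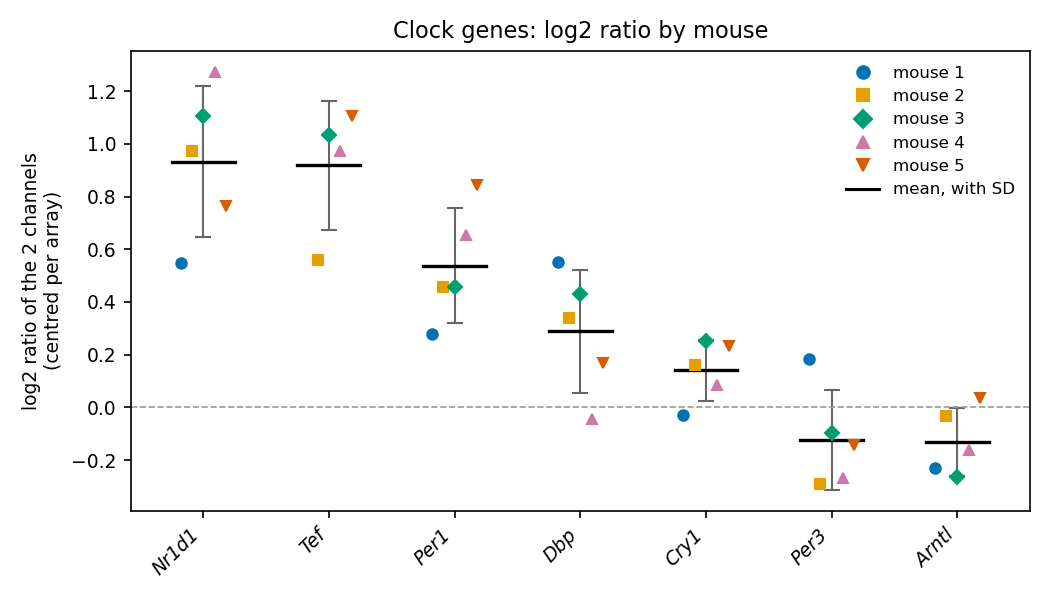
Log2 ratio of the channels (vertical axis, each array centred on its median) for the 7 measured clock genes, with a symbol per mouse, a black bar for the mean and error bars for the SD. All mice lie above 0 for Nr1d1, Tef (no value for mouse 1) and Per1, while Cry1, Per3 and Arntl have values on both sides of 0, as does Dbp.

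Promoter sequences are shown for the measured members whose window holds an element through which the loop acts. They come from RefSeq's table for GRCm38.p6, in which 9 of the 10 members, all but Per2, had a promoter, some with several starts. Each window spans 250 bases before to 50 after a start. The E-box was searched as CACGTG, the D-box as TTATGTAA or TTATGCAA and the core of the ROR element as TAGGTCA, on both strands. No matches overlapped. Over 32851 windows of the same length, 7.15% held the E-box, 1.66% a D-box and 2.61% the ROR core. A match is a description of the letters and was not tested for binding. Capitals mark the motifs, and sequences run 5′ to 3′ on the gene's strand, over the 250 bases before the start except for Arntl.
Per1, chr11:69098699-69098948, plus strand: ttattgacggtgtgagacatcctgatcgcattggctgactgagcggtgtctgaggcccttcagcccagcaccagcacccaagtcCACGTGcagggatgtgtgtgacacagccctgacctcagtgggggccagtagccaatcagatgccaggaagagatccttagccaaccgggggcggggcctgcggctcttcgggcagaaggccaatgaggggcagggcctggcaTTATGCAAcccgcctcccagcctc
Tef, chr15:81802423-81802672, plus strand: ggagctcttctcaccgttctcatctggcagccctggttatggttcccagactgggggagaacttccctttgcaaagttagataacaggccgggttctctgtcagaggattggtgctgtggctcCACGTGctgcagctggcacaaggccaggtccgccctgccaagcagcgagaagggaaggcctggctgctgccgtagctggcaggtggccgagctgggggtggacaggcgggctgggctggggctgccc
Cry1, chr10:85185055-85185304, minus strand: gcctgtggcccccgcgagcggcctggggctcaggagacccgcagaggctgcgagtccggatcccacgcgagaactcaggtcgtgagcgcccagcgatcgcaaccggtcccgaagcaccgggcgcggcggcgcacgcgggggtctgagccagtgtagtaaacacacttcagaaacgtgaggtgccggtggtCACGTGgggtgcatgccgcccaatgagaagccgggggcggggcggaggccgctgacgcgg
Per3, chr4:151044666-151044915, minus strand: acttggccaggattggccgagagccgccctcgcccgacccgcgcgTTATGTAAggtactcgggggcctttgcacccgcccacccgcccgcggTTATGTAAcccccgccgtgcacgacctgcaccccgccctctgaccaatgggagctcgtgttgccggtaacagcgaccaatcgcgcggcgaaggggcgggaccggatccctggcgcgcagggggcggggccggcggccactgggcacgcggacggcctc
Arntl, chr7:113207530-113207559, plus strand: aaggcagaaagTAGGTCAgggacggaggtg
Per1 had 2 windows, and the first, shown here, held an E-box that began 166 bases before the start and a D-box 24 bases before it, while the second held none of the motifs. Tef had an E-box in each of its 2 windows, 127 and 138 bases before the start, and the first is shown. The E-box of Cry1 began 60 bases before its start. Per3 had 2 D-boxes, 205 and 158 bases before the start, and no E-box in this window. In Arntl the ROR core began 31 bases into the transcript of its second start, and the 30 bases around it are shown. The windows of Nr1d1 and Dbp held none of these letters. Sequence outside the windows and variant forms of the motifs were not searched, so elements elsewhere in these genes are not excluded. E-boxes were thus present in Per1 and Tef, which passed the test, and in Cry1, which did not, so the letters did not divide the 7 genes by their call.

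Nr1d1 encodes REV-ERBα, a nuclear receptor that represses Arntl and other genes with ROR elements. Its log2 ratio was 0.55 in mouse 1, 0.97 in mouse 2, 1.105 in mouse 3, 1.27 in mouse 4 and 0.77 in mouse 5. All 5 values lay above 0, with mouse 4 highest and mouse 1 lowest. The mean was 0.93 ± 0.28 (SD, n = 5 mice), a 1.91-fold difference between channels (limma adjusted p = 0.000531). Among all genes and features, 6.7% had a mean as far from 0, so Nr1d1 stood well out from most of the table without being among its extremes. The value ranged from 0.85 to 1.03 when each mouse was left out in turn. By the wider-error test its limma adjusted p was 0.0949. The related receptor Nr1d2 had values for only 3 mice, at 0.40 in mouse 1, 0.17 in mouse 4 and 0.24 in mouse 5, and was not in the main test. An alternative filter of at least 3 arrays admitted it to the further clock genes described below. Of those, 19 were then tested and 6 passed above 0, against 18 tested and 5 above 0 in the main test. The added call is that of Nr1d2, whose mean was 0.27. In that setting 5119 of 11316 rows passed, 2668 of them above 0.

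Tef, thyrotroph embryonic factor, is a PAR bZIP activator acting through D-boxes. It had no value for mouse 1 and stood at 0.56 in mouse 2, 1.035 in mouse 3, 0.97 in mouse 4 and 1.106 in mouse 5. Mouse 2 lay below the other 3, which were close to each other. The mean of 0.92 ± 0.24 (SD, n = 4 mice) is a 1.89-fold difference (limma adjusted p = 0.000861, and adjusted p = 0.083 by the wider-error test). Nr1d1 and Tef differed by 0.11 ± 0.33 (SD, n = 4 mice), with Nr1d1 higher in 3 of 4, which is within the spread.

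Dbp, the D-site binding protein of the same PAR bZIP family, lay closer to 0 than Tef. Its log2 ratio was 0.55 in mouse 1, 0.34 in mouse 2, 0.43 in mouse 3, −0.05 in mouse 4 and 0.17 in mouse 5. Mouse 4, the highest for Nr1d1, was the lowest for Dbp, and mouse 1, the lowest for Nr1d1, was the highest for Dbp. The mean was 0.29 ± 0.23 (SD, n = 5 mice), a 1.22-fold difference (limma adjusted p = 0.033). This call ended when mouse 1, 2, 3 or 5 was left out (limma adjusted p = 0.0833, 0.09, 0.1 and 0.0555, with means of 0.22, 0.28, 0.25 and 0.32), with a plain one-sample test across all genes (adjusted p = 0.0958), with a required difference of 1.2-fold (limma adjusted p = 0.991) and by the wider-error test (limma adjusted p = 0.508). Hlf, the remaining factor of the family, was not measured.

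Of the period genes, which encode repressors of CLOCK and ARNTL, Per1 passed the test and Per3 did not. Per1, which is also induced directly by light, cAMP and glucocorticoid signals, stood at 0.28 in mouse 1, 0.455 in mouse 2, 0.458 in mouse 3, 0.66 in mouse 4 and 0.84 in mouse 5. All mice lay above 0, with mouse 5 highest. The mean was 0.54 ± 0.22 (SD, n = 5 mice), a 1.45-fold difference (limma adjusted p = 0.00222, and adjusted p = 0.201 by the wider-error test). Per3 is the period gene least needed for rhythm in mice. Its log2 ratio was 0.18 in mouse 1, −0.29 in mouse 2, −0.10 in mouse 3, −0.27 in mouse 4 and −0.14 in mouse 5. Mouse 1 alone lay above 0, and the mean was −0.12 ± 0.19 (SD, n = 5 mice; limma adjusted p = 0.222, 95% interval −0.31 to 0.06). Without mouse 1 the mean was −0.20 and passed (limma adjusted p = 0.0365). Per2 was not measured.

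Cry1, a cryptochrome that represses CLOCK and ARNTL together with the PER proteins, stood at −0.03 in mouse 1, 0.16 in mouse 2, 0.25 in mouse 3, 0.09 in mouse 4 and 0.23 in mouse 5. The values were small, and mouse 1 was again lowest. The mean was 0.14 ± 0.12 (SD, n = 5 mice; limma adjusted p = 0.085, 95% interval 0.0014 to 0.28). Without mouse 1 it was 0.18 and passed (limma adjusted p = 0.0407).

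Arntl, the partner of CLOCK in the activator complex and the main target of REV-ERBα, stood at −0.23 in mouse 1, −0.03 in mouse 2, −0.26 in mouse 3, −0.16 in mouse 4 and 0.04 in mouse 5. It lay below 0 in 4 of 5 mice, and no mouse was far from 0. The mean was −0.13 ± 0.13 (SD, n = 5 mice; limma adjusted p = 0.12, 95% interval −0.28 to 0.02). The within-array difference of Nr1d1 minus Arntl was 0.78 in mouse 1, 1.005 in mouse 2, 1.37 in mouse 3, 1.44 in mouse 4 and 0.73 in mouse 5, and averaged 1.06 ± 0.33 (SD, n = 5 mice). Every mouse had the higher ratio for Nr1d1, with the widest gap in mice 3 and 4. Nr1d1 and Arntl have the highest and the lowest mean of the 7 members, so a wide gap follows from that order. Most of it is the value of Nr1d1 (mean 0.93), since Arntl did not pass. Whether these genes moved in opposite directions was not tested.

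Ordered by mean, the members ran Nr1d1, Tef, Per1, Dbp, Cry1, Per3 and Arntl. For most neighbours in that order the mean difference was smaller than its SD over mice, which is not the error of that mean. Per1 exceeded Dbp by 0.25 ± 0.43 (SD, n = 5 mice), Dbp exceeded Cry1 by 0.15 ± 0.28, Cry1 exceeded Per3 by 0.26 ± 0.27 and Per3 exceeded Arntl by 0.01 ± 0.28. Tef exceeded Per1 by 0.32 ± 0.20 in all 4 mice with a value, a step larger than its SD, although the exact two-sided sign-flip test of 4 mice gave p = 0.125, the smallest it can give. For Cry1 over Per3 the exact sign-flip test of 5 mice also gave p = 0.125.

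**Figure D2:**
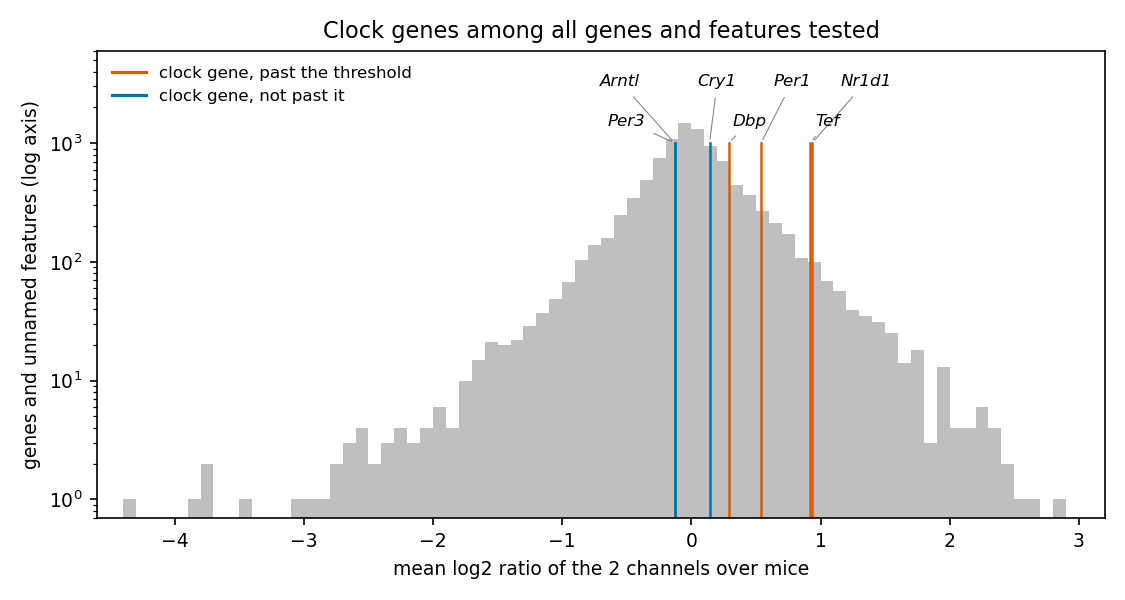
Histogram of the mean log2 ratio over mice of all 10081 genes and unnamed features (horizontal axis; counts on a log axis), with vertical lines at the 7 clock genes. Nr1d1 and Tef lie at 0.93 and 0.92, out on the upper slope, while Cry1, Per3 and Arntl lie in the centre of the distribution.

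The members differed in how much they varied between mice. The SD over mice was 0.28 for Nr1d1, larger than that of 83.8% of everything tested, and 0.24 for Tef, larger than 76.9%. Dbp and Per1 varied more than 74.3% and 70.3% of the table, whereas Cry1 and Arntl, with SDs of 0.12 and 0.13, varied more than 31.1% and 37.4%. The array of mouse 1 held the lowest value of Nr1d1, Per1 and Cry1 and the highest of Dbp and Per3. It was also lowest for Dusp1 and Ddb1 and highest for Tsc22d3 and Alas1, though neither for Cry2. This array held the fewest values, 11350. How often mouse 1 was lowest or highest over everything tested was not counted. The mouse with the highest or the lowest value thus differed between members, and how far members varied together was not measured.

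Markers of other tissue also varied between mice. Skeletal muscle was followed by 5 markers (Tnnc2, Myh2, Atp2a1, Ckm and Tnni2, 4 of them called below 0), whose median was −4.69, −3.26, −0.24, −1.15 and −3.48 in mice 1 to 5. Mice 3 and 4, which were highest for these markers, were also highest for Nr1d1, and mouse 1 was lowest for both. The other members were ordered otherwise. Tef, Per1 and Arntl were highest in mouse 5, Dbp and Per3 in mouse 1 and Cry1 in mouse 3. The part of muscle RNA in the values of Nr1d1 was not tested. Of the markers of endothelium, 3 of 3 measured were called above 0, with medians by mouse from 1.28 to 1.86. Type 1 alveolar markers had 3 of 5 above 0, type 2 alveolar markers 1 of 4 and club cell markers 3 of 4, with none called below 0, where 25.8% of the whole table was called above 0 and 23.9% below 0. Of 3 macrophage markers 2 were below 0 and 1 above 0, both markers of dividing cells were below 0, and 2 of 3 fat markers and both heart muscle markers were above 0. The part of these cell types in the clock genes' values was not tested. In whole lung, fewer cells of a type and less RNA per cell cannot be told apart. Because only ratios are used here, the level of any marker, and so the labelled tissue itself, could not be checked.

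The other genes of the clock machinery were taken from a list of 36, of which 18 were measured. Of these, 5 passed above 0, 5 passed below 0 and 8 did not pass, with a median of their means of 0.0040 against −0.01 over everything tested. The share called, 55.6%, lies near the 49.6% of the whole table. The list as a whole thus lay on neither side.

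Above 0 lay Cry2, the second cryptochrome, which was at 0.90 in mouse 1, 0.69 in mouse 2, 0.97 in mouse 3, 1.16 in mouse 4 and 0.57 in mouse 5. All mice lay above 0, mouse 4 highest as for Nr1d1, and the mean was 0.86 ± 0.23 (SD, n = 5 mice), a 1.81-fold difference (limma adjusted p = 0.00039). Sirt1, an NAD-dependent deacetylase that acts on ARNTL and PER2, had the list's highest mean at 1.71 ± 0.24 (a 3.26-fold difference; limma adjusted p = 3.03e-05), from 1.43 in mouse 1 to 1.98 in mouse 4. It was the list's 1 gene that passed by the wider-error test (limma adjusted p = 0.0124). Csnk1d, the casein kinase that phosphorylates PER proteins and sets their turnover, averaged 0.60 ± 0.21 (limma adjusted p = 0.00122). Nono, an RNA-binding partner of the PER proteins, averaged 0.48 ± 0.21, and Hdac3, the deacetylase that REV-ERBα recruits to repress its targets, 0.36 ± 0.09. Neither passed with a required 1.2-fold difference (limma adjusted p = 0.0804 and 0.216).

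Below 0 lay 3 kinases and 2 parts of ubiquitin ligases. Ddb1, an adaptor of cullin ubiquitin ligases that also works in DNA repair, was lowest at −1.28 ± 0.32 (SD, n = 5 mice; a 2.43-fold difference; limma adjusted p = 0.000215, and adjusted p = 0.0535 by the wider-error test). Its 5 values ran from −1.82 in mouse 1 to −0.96 in mouse 3. The kinase subunit Csnk2a1 averaged −0.38 ± 0.24 and the kinase Gsk3b −0.25 ± 0.08, small differences seen in all 5 mice. Csnk2a1 did not pass by the plain one-sample test across all genes (adjusted p = 0.0572), and neither of them with a required 1.2-fold difference (limma adjusted p = 0.388 and 1). Btrc, the F-box protein that marks phosphorylated PER for destruction, averaged −0.14 ± 0.03, and its call (limma adjusted p = 0.036) was lost without any of the mice, at limma adjusted p from 0.067 to 0.0931, while its mean stayed between −0.15 and −0.13. Csnk1a1 averaged −0.20 ± 0.07 over 3 features whose own means were −0.64, 0.10 and −0.07, so its sign depends on the feature, and with their median it did not pass (limma adjusted p = 0.395). Csnk1e, the paralog of Csnk1d, averaged −0.15 ± 0.48 and had mice 2 and 4 above 0 and the other 3 below. Leaving out mouse 4 moved this mean to −0.32, and leaving out mouse 1, 3 or 5 moved it to −0.050, −0.096 or −0.053. The repressors Nfil3, which competes with Dbp and Tef for D-boxes, and Bhlhe40 and Bhlhe41, which compete for E-boxes, averaged −0.09 ± 0.17, 0.03 ± 0.17 and 0.08 ± 0.09, and none passed.

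**Figure D3:**
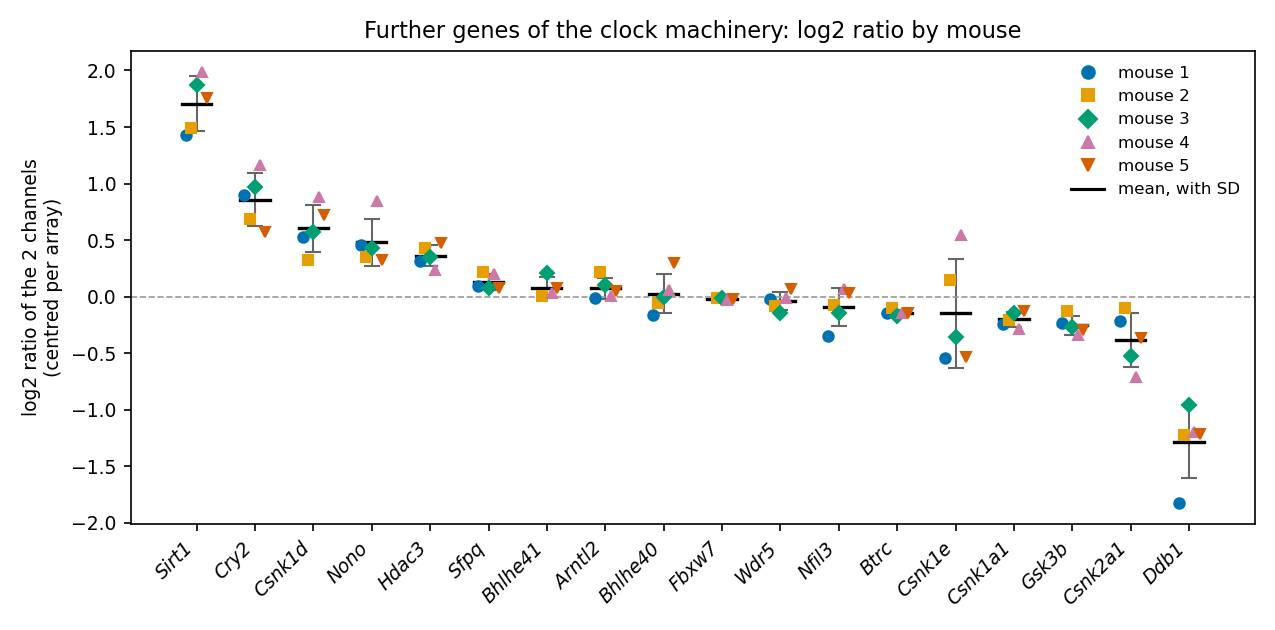
Log2 ratio of the channels by mouse for the 18 measured further genes of the clock machinery, ordered by mean (black bar; error bars, SD). Sirt1 and Cry2 lie highest at 1.71 and 0.86, and Ddb1 lowest at −1.28. The 8 genes that did not pass have means between −0.15 and 0.13.

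Genes known to follow the clock were taken from a list of 26, of which 9 were measured. Of these, 3 passed above 0 and 1 below 0, with a median of means of 0.09. The share called, 44.4%, lies near the 49.6% of the whole table. Tsc22d3, the glucocorticoid-induced leucine zipper, which is also rhythmic in many tissues, was at 2.22 in mouse 1, 1.07 in mouse 2, 1.595 in mouse 3, 1.89 in mouse 4 and 1.73 in mouse 5. Its mean of 1.70 ± 0.42 (SD, n = 5 mice) is a 3.25-fold difference (limma adjusted p = 0.000186). Alas1, the first enzyme of haem synthesis, averaged 1.36 ± 0.30 (limma adjusted p = 0.000133). Both passed by the wider-error test (limma adjusted p = 0.0487 and 0.0383). Gstt1, a glutathione transferase, averaged 0.66 ± 0.31 over 4 mice. It did not pass by a plain one-sample test across all genes (adjusted p = 0.0576) or by the wider-error test (limma adjusted p = 0.237). Noct, the rhythmic phosphatase nocturnin, averaged −0.18 ± 0.03 over 4 mice, and its call (limma adjusted p = 0.035) was lost without mouse 2, 3, 4 or 5, at limma adjusted p from 0.0821 to 0.1, while its mean stayed between −0.19 and −0.17.

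Glucocorticoid-responsive genes were set beside Per1, which belongs to both groups. Of 19 listed, 12 were measured, 8 passed above 0 and 2 below 0 (83.3% called, against 49.6% of the whole table), with a median of means of 0.47. Without Per1, 7 of 11 passed above 0 and 2 below 0, with a median of 0.41. Dusp1, a phosphatase that inactivates MAP kinases and also an immediate early gene, stood at 1.55 in mouse 1, 2.46 in mouse 2, 2.195 in mouse 3, 2.39 in mouse 4 and 1.81 in mouse 5. Its mean of 2.08 ± 0.39 (SD, n = 5 mice) is a 4.23-fold difference (limma adjusted p = 6.59e-05), and it passed by the wider-error test (limma adjusted p = 0.0225). Tsc22d3 (above) came next, and Fkbp5, a co-chaperone of the glucocorticoid receptor, averaged 1.02 ± 0.33 (limma adjusted p = 0.000644, and limma adjusted p = 0.107 by the wider-error test).

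Below 0 on that list were the metallothionein Mt2 and the transglutaminase Tgm2. Mt2 was at −0.77 in mouse 1, −2.43 in mouse 2, −2.515 in mouse 3, −3.456 in mouse 4 and −3.454 in mouse 5. Its mean was −2.53 ± 1.10 (SD, n = 5 mice; limma adjusted p = 0.00157, and limma adjusted p = 0.17 by the wider-error test). Mouse 1 lay nearest to 0, and mice 4 and 5 were nearly equal. Metallothionein genes also respond to metals and inflammation. Tgm2 averaged −0.56 ± 0.35 (limma adjusted p = 0.00934), and did not pass by the plain one-sample test across all genes (adjusted p = 0.0557) or with a required 1.2-fold difference (limma adjusted p = 0.111). The list is thus not on a single side, although most of its called genes shared the side of Per1.

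**Figure D4:**
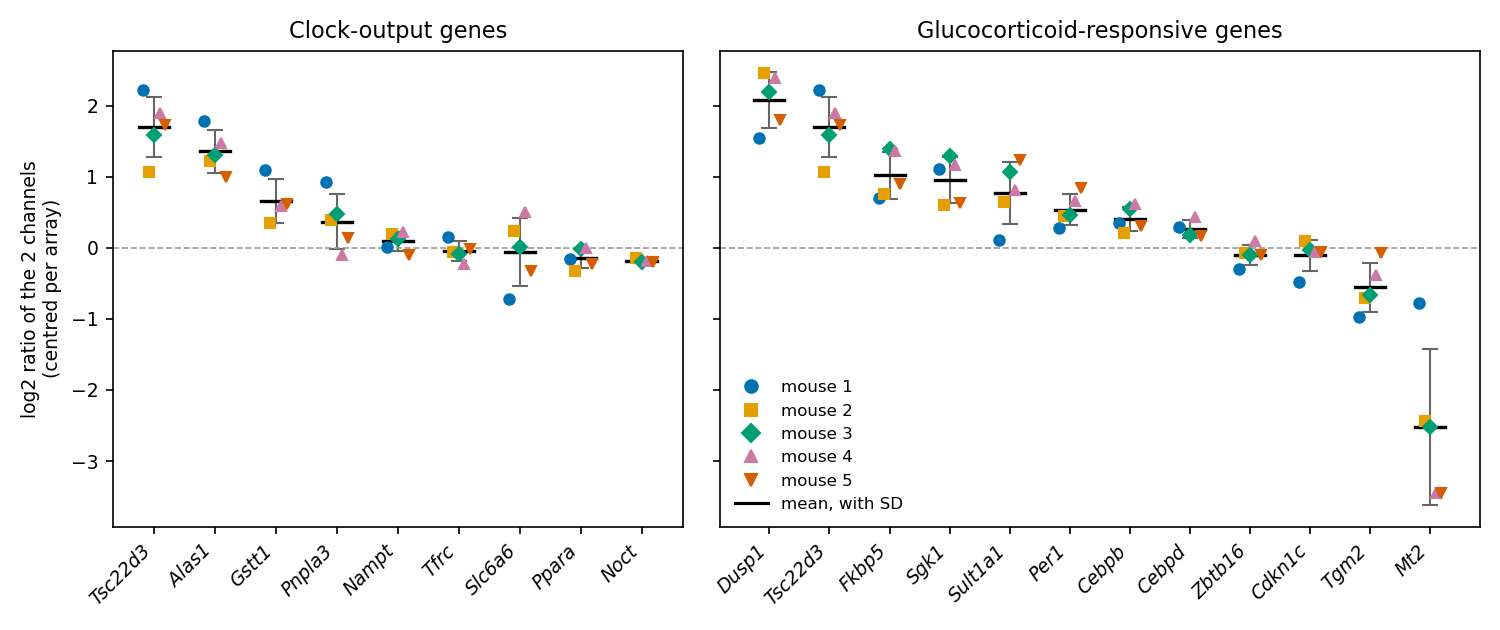
Log2 ratio of the channels by mouse for 9 clock-output genes (left) and 12 glucocorticoid-responsive genes (right), ordered by mean (black bar; error bars, SD); Tsc22d3 is on both lists. Dusp1, at 2.08, and Tsc22d3, at 1.70, lie highest, and Mt2, at −2.53, lies lowest with the widest spread between mice.

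The genes whose ratios came nearest to those of each member, mouse by mouse, were found as those with the smallest root mean square difference of log2 ratios over the member's mice, among 9039 named genes. For Nr1d1 these were Hmgb2, a chromatin protein, and the growth factor Fgf7, at differences of 0.103 and 0.105 over 5 mice. Dync1h1, the dynein heavy chain, lay 0.031 from Dbp, and Hnrnpdl 0.055. Cyp4f15 and Rgs9 lay nearest to Tef over 4 mice, at 0.098 and 0.105, and Ncoa5 and Copb2 nearest to Per1, at 0.075 and 0.077. Those nearest to Cry1 were Asz1 and Gpr39, to Per3 Med18 and Lrrfip2, and to Arntl Sun5 and Necab3, at 0.039 to 0.060. No other clock gene was among the 2 nearest of any member. With 5 mice the nearness is a description and carries no test.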

How the data were processed

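The deposited table holds 1 log ratio per feature and array, taken as log2; per the labels, channel 1 held RNA of a bleomycin-treated mouse and channel 2 the control pool. The authors' normalization, log base and dyes were not stated in the labels or the file. Deposited medians were 0.011 to 0.026, and every array was shifted to a median of 0. Arrays held 11350 to 12083 values of 17280 features; intensities were not used, so the number of arrays limits the precision. Symbols came from the platform annotation. For 14445 features the gene identifier was found in RefSeq and its current symbol was used, whether or not it differed. Features on at least 4 arrays were kept (10702) and averaged by symbol. Means were tested against 0 with limma 3.58.1 (R 4.3.3, intercept-only, empirical Bayes, two-sided, Benjamini-Hochberg over 10081 rows, threshold 0.05). The procedure was tested on simulated data with independent noise. That simulation held no error shared through the pool, so it cannot show how such an error affects the calls. No batch is named in the labels. Members and lists were chosen with earlier results of these data known. Named were all measured members, all called genes of the clock list, and, of the called genes of each other list, up to 3 farthest from 0 on each side; Csnk1e, Nfil3, Bhlhe40, Bhlhe41 and Nr1d2 were added after their values were seen. Alternatives changed centring, scaling, the filter, features, the test, the pool and the mice used.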

Additional observations from a re-analysis of the deposited data

Results flagged for a closer look

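In 52 genes checked, 2 had a mouse apart from the others by Dixon's criterion, which chance exceeds in about 1 of 20 groups. Neither was a clock gene of the set. Nono, a partner of PER proteins, stood at 0.84 in mouse 4, with the next mouse at 0.46. Cdkn1c, a cell cycle inhibitor on the glucocorticoid list that did not pass the test, stood at −0.48 in mouse 1, with the next mouse at −0.06.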

How the results depend on the processing

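The calls of Nr1d1, Tef and Per1 ended only by the wider-error test, of the alternatives run that could give a value; Tef had none with features on all 5 arrays. Nr1d1 was then 0.93, Tef 0.92, Per1 0.54 and Dbp 0.29 as before, with wider errors. That setting left 513 of 10081 rows called, 0 members, 1 other clock gene, 2 clock-output genes and 2 glucocorticoid-responsive genes. Dbp, at 0.29, also did not pass by a plain one-sample test or with a required 1.2-fold difference, the latter leaving 1847 rows and 4 other clock genes; with features on all 5 arrays 2 clock-output genes were called, out of 7 measured. Leaving out each mouse moved Nr1d1 from 0.85 to 1.03, Tef from 0.86 to 1.04, Per1 from 0.46 to 0.60, Dbp from 0.22 to 0.37, Cry1 from 0.11 to 0.18, Per3 from −0.20 to −0.082 and Arntl from −0.17 to −0.10. Members called numbered 3 to 5 and all rows 4106 to 4616. No member changed side. Slc6a6 (−0.06) turned to 0.11 without mouse 1 and 0.01 without mouse 5, and Bhlhe40, which reached 0.074 without mouse 1, turned to −0.041 without mouse 5. The causes were not tested. No paired analysis was possible because the samples form 1 group.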
